A study of Homo sapiens with 54 samples.

Results

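H1 is an established human embryonic stem cell (ESC) line, and the comparison here is between 1 H1 culture kept for 30 days with the chimeric growth factor FGFC and 1 kept for 30 days with basic fibroblast growth factor (bFGF, also called FGF2). Each culture was hybridised to 2 one-colour arrays, so 4 of the 54 arrays of the series carry the comparison. The arrays were chosen by their labels alone, which give passage 58 for both cultures, and no measured value entered the choice. Both cultures received Essential 6 Medium with 2 ng/mL of TGF-beta 1, to which 100 ng/mL of bFGF (that is, E8 Medium) or 100 ng/mL of FGFC was added. FGFC is a recombinant protein built from parts of FGF1 and FGF2. With 1 culture on each side there is no replicate of either condition, and the paired arrays measure only the error of labelling and hybridisation. The other H1 cultures in E8 Medium, used as a reference, were 3 pre-cultures kept with bFGF, 3 cultures after 4 days with bFGF, 3 after 4 days with FGFC and 3 after 4 days with no FGF, from 3 experiments.

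In human ESCs, FGF acts through receptor tyrosine kinases and the RAS-ERK cascade, and it maintains the undifferentiated state together with signals of the TGF-beta family. NODAL and Activin, ligands of that family, act through SMAD2 and SMAD3, and SMAD2/3 switches on NODAL itself and the genes of its secreted inhibitors, LEFTY1 and LEFTY2. FGF-ERK signals in turn switch on their own feedback inhibitors, among them the DUSP and SPRY genes, and immediate-early genes such as EGR1. Without these signals human ESCs leave the undifferentiated state, often toward neuroectoderm.

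Levels are given as the log2 of the signal minus the 75th percentile of the array, so that 1 unit is a 2-fold difference and 0 is the brightness of that percentile. Levels of different probes are not compared. The bFGF arrays had 60.1% and 63.4% of their probes well above background, as flagged by the scanner software, and the FGFC arrays 67.6% and 65.8%. Where a culture's 2 arrays both detected a probe in this way, the median absolute difference between them was 0.09 with bFGF and 0.09 with FGFC, and that between the 2 cultures was 0.18 over the 24606 probes detected on all 4 arrays. The bFGF arrays agreed less well in the probes that stood far apart. Of the probes detected on both bFGF arrays, 338 were 2-fold apart between them. Far fewer were 2-fold apart between the FGFC arrays, although more probes were detected on both of those. Some probes read far lower on the bFGF array 2: HSPB1 read 4.40 on array 1 and -1.90 on array 2, and TRIM71 3.39 and 0.44. Both bFGF arrays lay on 1 slide and both FGFC arrays on another, so slide and growth factor cannot be told apart. The experiment 1 pre-culture had 1 array on the slide of the bFGF arrays and 1 on a further slide, which gives a measure of slide differences that the comparison did not use.

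A probe was called where it differed at least 2-fold in the same direction on array 1 and on array 2 and both arrays of a culture detected it. This rule carries no test. Of 27472 probes detected by both arrays of at least 1 culture, it called 397, or 1.45%. With FGFC, 136 probes (0.495%) were higher and 261 (0.95%) were lower. Detection on all 4 arrays was reached by 49 of the higher probes, which hold 40 named genes, and by 170 of the lower probes, which hold 100. In 77 of the higher and 67 of the lower probes, neither array of the lower culture was well above background. With normexp background correction the rule called 22 probes higher and 96 lower. The median difference of all 27472 probes was 0.03. The genes nearest the threshold were LRRC55 and TLDC2 on the inside, whose smaller array differences were 1.0018 and 1.0044 in log2 units, and GRIN2D and TMEM233 on the outside at 0.9999 and 0.9995.

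**Figure D1:**
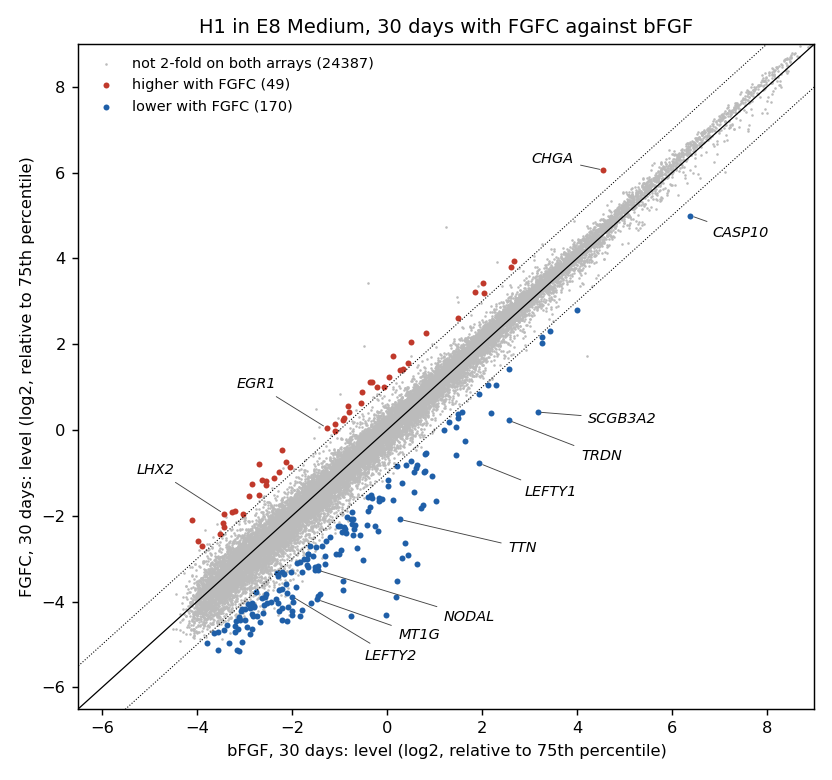
Level of each of the 24606 probes detected on all 4 arrays with bFGF (x axis) and with FGFC (y axis), as the mean of 2 arrays in log2 units relative to the 75th percentile of the array. The solid line marks equal levels and the dotted lines 2-fold; 49 red points are higher and 170 blue points lower with FGFC on both arrays, and most probes lie close to the line.

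Called probes, dim ones included, were 2-fold apart between slides more often than probes in general. The 2 arrays of the experiment 1 pre-culture lay on different slides. Between them, 0 of the 49 higher and 2 of the 170 lower probes (1.18%) detected on all 4 arrays were 2-fold apart. The share of all 24606 such probes was 0.325% (80 probes), and the counts among the calls are too small for a comparison. Among all calls, dim probes included, 18 of the 136 higher (13.2%) and 14 of the 261 lower probes (5.36%) were 2-fold apart there, against 281 (1.02%) of all 27472. Of the 14 lower probes, 13 read higher on the slide of the bFGF arrays, the direction of their call, and 1 read lower. Of the 18 higher probes, 6 read lower on that slide, the direction of their call, and 12 read higher. Without the probes 2-fold apart between slides the calls numbered 365, and the part of the slides in the calls was not tested further. The slide of the FGFC arrays is not covered by this measure.

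The ligand and the inhibitors of the Nodal pathway were lower after 30 days with FGFC, by the 2-fold rule. LEFTY1, a secreted inhibitor of NODAL, read 1.97 and 1.92 on the 2 bFGF arrays and -0.84 and -0.71 on the FGFC arrays. The arrays of the 2 cultures were thus far apart beside a gap of less than 0.2 between paired arrays, and the mean difference was -2.72, or 6.60-fold. LEFTY2, the neighbouring second inhibitor gene, read -1.94 and -2.05 with bFGF and -3.88 and -3.89 with FGFC (3.70-fold). NODAL, the ligand, read -1.51 and -1.42 with bFGF and -3.31 and -3.23 with FGFC (3.49-fold). In the 9 other H1 cultures with FGF, LEFTY1 lay between 1.18 and 3.60, LEFTY2 between -2.10 and -0.07 and NODAL between -2.32 and -0.45. The FGFC culture at 30 days was below all 9 for each of the 3 genes, and the bFGF culture was within their range. As RNA was taken from whole cultures, fewer cells with the RNA and less RNA in each cell cannot be told apart here or in any result that follows.

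No other listed gene of the Nodal pathway was called. Of 27 listed genes 23 were detected in a culture, 3 were called, all of them lower, and the median difference of the 23, these 3 included, was -0.06, which turned to 0.03 with quantile normalization, beside 0.03 for all probes. CRIPTO (TDGF1), the co-receptor of NODAL, read 5.79 and 5.90 with bFGF and 5.88 and 5.84 with FGFC. ACVR1C, a type I receptor for NODAL, differed by -1.20 on array 1 and by -0.85 on array 2 and so missed the rule. GDF3, a ligand related to NODAL, differed by -0.45. The receptor genes ACVR2A and ACVR2B and the mediators SMAD2 and SMAD4 differed by less than 0.15 in the mean. SMAD7, an inhibitory SMAD, and TGFBR1 are not reported as differences because the paired bFGF arrays disagreed, at 0.63 and -1.24 for SMAD7 and at -2.06 and -4.19 for TGFBR1.

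All 3 genes were below their bFGF level in each of the 3 experiments of 4 days. FGFC minus bFGF there was -0.77, -0.79 and -0.88 for LEFTY1, -0.57, -0.76 and -0.86 for LEFTY2 and -0.53, -1.04 and -0.90 for NODAL. In these 3 genes the 30-day difference was larger than each of the 4-day differences. limma's test of the difference between the 2 periods, with the spread of 3 cultures per group lent to the single 30-day cultures, gave an adjusted p of 1 for each gene. Long-term cultures in other settings differed: in the 253G1 induced pluripotent stem cell (iPSC) line after 36 days in E8 Medium, FGFC minus bFGF was -0.55 for LEFTY1, 0.18 for LEFTY2 and 0.49 for NODAL. In H1 ESCs after 41 days in medium conditioned by mouse embryonic fibroblasts (MEF), with either FGF at 5 ng/mL, it was 1.57, 1.36 and 0.82. Each of these is a single pair of cultures.

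**Figure D2:**
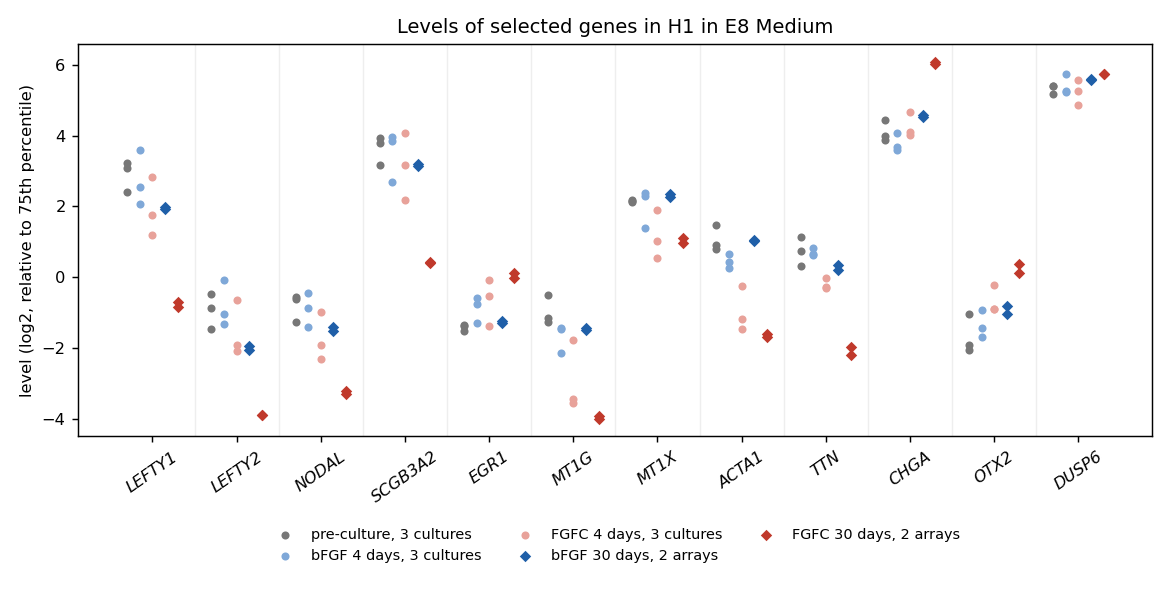
Levels of 12 genes in H1 cultures in E8 Medium (y axis, log2 relative to the 75th percentile of the array); circles are the 3 pre-cultures and the 3 cultures each after 4 days with bFGF or FGFC, and diamonds are the 2 arrays of each 30-day culture. LEFTY1, LEFTY2, NODAL, SCGB3A2, MT1G, ACTA1 and TTN with FGFC at 30 days lie below every other point of the gene, CHGA, EGR1 and OTX2 lie at the top, and the DUSP6 points of all groups lie between 4.85 and 5.75.

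The FGF-ERK feedback genes were at similar levels in both cultures. None of the 16 listed genes was called, all 16 were detected in both cultures, and their median difference was 0.06. DUSP6, the phosphatase that inactivates ERK, read 5.56 and 5.59 with bFGF and 5.74 and 5.75 with FGFC. SPRY4, an inhibitor of the RAS-ERK cascade, read 2.41 and 2.37 with bFGF and 2.45 and 2.40 with FGFC. In the cultures without FGF for 4 days, the difference of DUSP6 from its bFGF level was -4.30, -1.53 and -2.13 in the 3 experiments. The largest 30-day difference in the list was PHLDA1, at 0.67. After 4 days, the list's median FGFC minus bFGF was 0.21, -0.38 and -0.38 in experiments 1, 2 and 3. With FGFC 2, 15 and 14 of the 16 genes were lower there. The medians of all named genes detected at 30 days were 0.10, -0.07 and -0.06 in these experiments. Of the 15 FGF ligands and receptors, 10 were detected and 1 was called: FGF13, an intracellular FGF homologue, differed by -1.08 on its brightest probe and was called lower on a dim second probe too, at least 3.84-fold. FGFR1, an FGF receptor, read 3.77 and 3.77 with bFGF and 3.88 and 3.84 with FGFC.

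EGR1, an immediate-early transcription factor induced through serum response factor, was 2.50-fold higher with FGFC. It read -1.25 and -1.30 with bFGF and 0.12 and -0.01 with FGFC. The 9 other cultures spanned -1.51 to -0.08, so that the FGFC culture was above all 9 and the bFGF culture within their range. Of 22 listed immediate-early genes 18 were detected, 1 was called higher and 1 lower, and their median difference was 0.08. FOS, the partner of JUN in AP-1, was 0.49 higher, a smaller step than its range of -2.43 to -0.38 among the 9 other cultures. CCN1 (CYR61), a secreted matrix protein, was the gene called lower. It read 3.45 and 3.39 with bFGF and 2.33 and 2.30 with FGFC, below the 3.28 to 3.90 of the 9 others, and its relative CCN2 differed by -0.92, short of the rule. For EGR1 at 4 days, FGFC minus bFGF was 0.68, 0.03 and -0.08.

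The promoters of EGR1 and of ACTA1, a gene described below that was lower with FGFC, are shown because both hold the CArG box, the site that serum response factor binds. Each runs from 250 bases before to 50 bases after the RefSeq start in GRCh38.p14, 5′ to 3′ on the strand of the gene, with CArG boxes in capitals. EGR1 is at chr5:138465229-138465528 on the plus strand and ACTA1 at chr1:229434045-229434344 on the minus strand.
EGR1: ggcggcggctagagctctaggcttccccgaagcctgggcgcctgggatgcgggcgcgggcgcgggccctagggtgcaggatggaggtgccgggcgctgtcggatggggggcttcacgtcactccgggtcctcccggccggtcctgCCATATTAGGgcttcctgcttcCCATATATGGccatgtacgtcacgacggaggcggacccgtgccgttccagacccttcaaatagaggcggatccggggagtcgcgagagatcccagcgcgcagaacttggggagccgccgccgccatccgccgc
ACTA1: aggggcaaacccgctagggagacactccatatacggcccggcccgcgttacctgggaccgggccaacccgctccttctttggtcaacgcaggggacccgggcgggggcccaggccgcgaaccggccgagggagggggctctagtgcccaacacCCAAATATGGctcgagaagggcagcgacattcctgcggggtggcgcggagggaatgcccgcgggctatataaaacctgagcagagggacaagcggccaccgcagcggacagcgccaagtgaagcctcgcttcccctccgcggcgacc
The EGR1 window held 2 matches and the ACTA1 window 1. Of 35116 RefSeq promoters of this length, 454 (1.29%) held at least 1. The 2 genes differed in opposite directions, and use of the box in these cultures was not measured.

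SCGB3A2, a secretoglobin known from airway epithelium, was 6.75-fold lower with FGFC. It read 3.20 and 3.15 with bFGF and 0.40 and 0.44 with FGFC, beside 2.17 to 4.06 in the 9 other cultures. The other airway genes did not share its difference. Of the 10 listed genes 6 were detected and only SCGB3A2 was called. SCGB3A1, a second secretoglobin, read 3.67 and 3.94 with bFGF and 3.88 and 3.97 with FGFC. NKX2-1, which defines lung and thyroid endoderm, and the surfactant genes SFTPA1 and SFTPB were not well above background on any of the 4 arrays. At 4 days, FGFC minus bFGF for SCGB3A2 was 0.21, -0.78 and -0.54.

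Most genes of the undifferentiated state were at similar levels. All 21 listed core pluripotency genes were detected in both cultures, 2 were called lower and 0 higher, and their median difference was 0.04. POU5F1 read 8.32 and 8.25 with bFGF and 8.52 and 8.55 with FGFC, SOX2 read 4.75 and 4.73 against 4.91 and 4.82, and NANOG read 4.58 and 4.49 against 4.40 and 4.38. The defining markers of the labelled cell type were thus present in both cultures. The genes called were DPPA2, a chromatin factor of early embryos and germ cells, at 0.43 and 0.39 with bFGF and -0.80 and -0.83 with FGFC, and GAL, the neuropeptide galanin, at 3.98 and 4.03 with bFGF and 2.82 and 2.79 with FGFC. Both were below the 9 other cultures, whose lowest values were 0.18 for DPPA2 and 3.02 for GAL. None of the 5 detected genes of 12 listed for the naive state was called. KLF17, a factor of the preimplantation embryo, differed by -0.51 and -0.25 on the 2 array pairs.

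In the list of neuroectoderm genes, the calls were higher ones. Of 19 listed genes 13 were detected, 2 were called higher and 0 lower. At any size, 9 of the 13 were higher and 4 lower, while 8543 of all 14874 detected named genes were higher. The list's median difference was 0.34, but 0.04 on array 1 and 0.36 on array 2 when taken over each alone. LHX2, a LIM homeobox factor of forebrain and eye, read -3.49 and -3.39 with bFGF and -1.95 and -1.94 with FGFC, and its difference was 0.81 with normexp, where it was not called. OTX2, a homeobox factor of anterior neuroectoderm that ESCs also express, read -0.82 and -1.05 with bFGF and 0.37 and 0.10 with FGFC. Both were above all 9 other cultures with FGFC. PAX6, which defines neural commitment, was not well above background on either FGFC array and was so on 1 bFGF array, and the early neural genes SOX11 and POU3F1 were 0.47 and 0.55 higher, short of the rule. Called genes outside the lists, chosen after their values were seen, included HESX1, a forebrain and pituitary homeobox factor (1.16 higher), MAP2, a dendritic microtubule protein (1.60), and MAP6, a second microtubule protein, on both of its probes (2.02 and 1.74). TTBK1, a brain kinase of the tau protein, was the only gene of the 15 with the highest differences to be detected on all 4 arrays and read -2.84 and -2.57 with bFGF and -0.77 and -0.83 with FGFC.

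The other lineage lists held few calls. In the list of primitive streak and endoderm genes, 9 of 18 were detected and CXCR4, a chemokine receptor of definitive endoderm, was called lower, at -2.92 and -2.77 with bFGF and -4.10 and -3.95 with FGFC, a difference of -1.18 that was -0.56 with normexp and so not called. WNT3, a ligand that starts the streak, differed by -1.12 and -0.83, and the lowest of the 9 other cultures was above both of its 30-day levels. Of 14 mesoderm genes 6 were detected and of 10 neural crest genes 4, with none called. In the list for amnion and trophoblast 4 of 13 were detected. VTCN1, an immune checkpoint ligand also made by amnion, was called higher from a level not well above background with bFGF, which makes it at least 1.81-fold higher. With normexp its difference was 0.44 and not called. In the BMP list 12 of 16 were detected and BMP2, a ligand, was called 1.19 higher, but its difference was 0.45 with normexp and not called. In the WNT list 14 of 21 were detected and FRZB, a secreted WNT antagonist, was called 1.20 higher, and its difference was 0.87 with normexp and not called. LEF1, a nuclear partner of beta-catenin, was higher by 0.91 on array 1 and 1.40 on array 2, short of the rule.

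Of the fibroblast markers, 4 of 9 were detected, all 4 were lower with FGFC and 1 was called lower. Over all detected named genes, 6331 of 14874 were lower at any size and 0.881% were called lower. The called marker was TAGLN, an actin-binding protein of smooth muscle and fibroblasts, at 2.52 and 2.62 with bFGF and 1.39 and 1.46 with FGFC. The summed linear signal of the 9 markers, relative to the 75th percentile, was 57.6 and 59.5 with bFGF and 47.9 and 49.5 with FGFC. A part of such cells in the difference was not tested.

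ACTA1, skeletal muscle actin, read 1.02 and 1.04 with bFGF and -1.62 and -1.69 with FGFC, a 6.43-fold difference. The 9 other cultures spanned -1.47 to 1.47, and FGFC minus bFGF at 4 days was -0.90, -1.61 and -1.73. TTN, the giant sarcomere protein, read 0.34 and 0.21 with bFGF and -1.98 and -2.19 with FGFC on its bright probe, and its dim probe was also called lower. At 4 days its FGFC minus bFGF was -1.11, -0.64 and -0.96. TRDN, a calcium-release protein of muscle, read 2.61 and 2.52 with bFGF and 0.22 and 0.23 with FGFC. NEB, a thin filament protein (-1.44), MYH2, a myosin heavy chain (-1.33), and ACTG2, smooth muscle actin (-1.12), were called lower as well. All of these apart from ACTA1 were picked after their values were seen, so they are single genes and not a count over a list. In the mesoderm list, where 0 of 6 detected genes were called and 3 of the 6 were higher, ACTA2, a second smooth muscle actin, differed by -0.82 and -1.20 and missed the rule, while the somite regulator MESP2 and the muscle intermediate filament DES differed by 0.16 and 0.02 in the mean.

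Metallothioneins, small proteins that bind zinc and copper, were mostly lower with FGFC. Of 9 listed genes 8 were detected, 7 of the 8 were lower, 2 were called lower and the median difference was -1.03, beside 0.03 for all probes. Among all 14874 detected named genes, 6331 were lower and 0.881% were called lower. MT1G read -1.50 and -1.45 with bFGF and -3.99 and -3.91 with FGFC. MT1X read 2.26 and 2.34 with bFGF and 0.97 and 1.11 with FGFC, and its second probe was called too. MT1E and MT1F differed by -1.13 and -1.06 in the mean and MT1H by -0.86 and -1.15 on the 2 array pairs, and all 3 missed the rule on array 1, while a dim second probe of MT1H was called lower, at least 6.65-fold. MT1A and MT3 differed by -0.22 and 0.02. The genes are close copies of each other, so a probe may read more than 1 of them. Their levels also varied among the other cultures. MT1X spanned 0.55 to 2.38 in the 9 others, which includes the FGFC level, and its FGFC minus bFGF at 4 days was -0.48, -1.27 and -0.83. In the 253G1 iPSCs in E8 Medium it was 1.16 on this probe and -0.15 on the second. The median FGFC minus bFGF of the 8 detected genes was -0.27, -1.06 and -0.65 in the 3 experiments of 4 days. It was 0.12 in the 253G1 iPSCs and -0.60 in 201B7 iPSCs after 50 days on feeder cells. In H1 ESCs in MEF-conditioned medium it was 0.51 and in KhES-1 ESCs on feeder cells 0.22, and in both pairs 0 of the 8 were lower.

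Metal-responsive transcription of these genes runs through the metal response element, whose core was searched as TGCACNC and TGCGCNC on both strands, with overlaps counted. The windows of MT1X, at chr16:56682220-56682519, and of MT1H, at chr16:56669564-56669863, both on the plus strand of GRCh38.p14 and cut as above, are shown because probes of both genes were called lower. Cores are in capitals.
MT1X: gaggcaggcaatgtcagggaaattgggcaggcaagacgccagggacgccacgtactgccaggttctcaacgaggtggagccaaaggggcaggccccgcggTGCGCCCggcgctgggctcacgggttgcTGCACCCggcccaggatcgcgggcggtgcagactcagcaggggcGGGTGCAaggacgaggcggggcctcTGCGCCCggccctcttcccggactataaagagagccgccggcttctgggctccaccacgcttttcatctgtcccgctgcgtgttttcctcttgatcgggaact
MT1H: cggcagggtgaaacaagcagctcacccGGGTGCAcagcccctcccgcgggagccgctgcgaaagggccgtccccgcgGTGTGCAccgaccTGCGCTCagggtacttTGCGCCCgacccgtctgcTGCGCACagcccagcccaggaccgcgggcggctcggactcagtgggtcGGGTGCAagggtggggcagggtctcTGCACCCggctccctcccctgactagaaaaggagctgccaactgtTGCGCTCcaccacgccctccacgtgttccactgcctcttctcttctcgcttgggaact
MT1X held 4 matches and MT1H 8. At least 3 matches were found in 809 (2.30%) of the 35116 promoters and at least 1 in 10377 (29.6%). Use of the element in these cultures was not measured.

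Long noncoding RNAs made up a large share of the lower probes. Of the 261 lower probes 84 (32.2%) carry the name of a lincRNA region, against 4206 (15.3%) of the 27472 probes considered and 16 of the 136 higher probes (11.8%). In 4 loci at least 3 such probes were called, all lower. Coordinates are hg19, as in the array files. At chr7:19951575-20168878, which 12 probes cover, 6 were detected and all 6 were called, with a median over them of -1.68 and -1.67 on the bFGF arrays and -4.93 and -4.90 on the FGFC arrays. The 9 other cultures lay between -1.42 and 0.97, so that the bFGF culture was itself below all 9. At chr6:132223103-132290382, which 8 probes cover, 7 were called, with medians of 0.45 and 0.11 with bFGF and -2.89 and -2.87 with FGFC. The 9 other cultures lay between -0.15 and 1.42 there. In the 3 cultures without FGF the median difference from bFGF at this locus was -6.71, -5.34 and -6.44. The remaining loci were chr2:111935979-112252622, with 5 called probes of 9 detected, and chr2:8001249-8039786, with 4 of 5. Probes of 1 locus can read 1 transcript and are not independent. MACC1-OT1 is the symbol of 2 of the called probes of the chr7 locus, and the brighter read -1.18 and -1.12 with bFGF and -4.60 and -5.13 with FGFC, both below the lowest of the 9 others at -0.77. Among noncoding genes with a symbol, MIR4435-2HG read 1.39 and 1.52 with bFGF and -0.56 and -0.60 with FGFC. CYTOR read 0.55 and 0.59 against -1.53 and -1.36. Overlap of their probes with the loci above was not examined, so they are not counted as separate results. These 2 genes are near copies, so their probes may read both. LINC00458, a transcript known from human ESCs, was at least 3.05-fold lower.

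Other genes detected on all 4 arrays were called in both directions. CHGA, chromogranin A of secretory granules, read 4.53 and 4.59 with bFGF and 6.03 and 6.08 with FGFC, and the highest of the 9 other cultures was 4.65. NR3C1, the glucocorticoid receptor, read 0.84 and 0.82 with bFGF and 2.26 and 2.27 with FGFC, and a second probe was 1.60 higher. CYP26A1, which breaks down retinoic acid, was 1.55 higher, and PKDCC, a secreted tyrosine kinase, was 1.40 and 1.26 higher on its 2 probes. CASP10, a caspase of the death receptor pathway, was lower and read 6.44 and 6.33 with bFGF and 4.95 and 5.05 with FGFC and lay between 6.49 and 7.16 in the 9 others. These were chosen after their values were seen.

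Of the 15 named genes with the highest differences, all but TTBK1 were not well above background on either bFGF array. They were FEZF1, APC2, BRINP2, SPATA31A1, WFIKKN2, TCF12-DT, VTCN1, LHX4, LCE5A, ETV3L, GTF2IRD2, EWSAT1, LRMDA and COL17A1. For these the array gives a bound, which was at least 4.42-fold for APC2, a homologue of the WNT regulator APC, at least 3.70-fold for FEZF1, a forebrain zinc finger factor, and between 1.02-fold and 3.51-fold at least for the others. For APC2, WFIKKN2 and EWSAT1, the bFGF culture lay below all 9 other H1 cultures with FGF and the FGFC culture within their range. APC2 read -5.05 with bFGF and -2.23 with FGFC in the mean, beside a median of -2.26 in the 9. For GTF2IRD2, bFGF lay below and FGFC above all 9. LRMDA lay within the range in both, and the rest above it only with FGFC. Of the 136 higher probes, the bFGF culture was below all 9 for 42, within their range for 85 and above for 9. Of the 15 with the lowest differences, SCGB3A2, ACTA1, LEFTY1 and MT1G were detected on all 4 arrays, and MACC1-OT1 on all but 1. LINC02108, SDR9C7, OR52J3, SPMAP1, MZF1-AS1, BTBD19, POM121L2, ALDH1A2, LINC00458 and OR4L1 were not well above background with FGFC, with bounds from 1.63-fold for ALDH1A2, a retinoic acid synthase, to 8.53-fold for SPMAP1. For all of these genes but LINC00458, the bFGF culture was above all 9 other H1 cultures with FGF and the FGFC culture within their range. SDR9C7, an enzyme of the skin barrier, read -3.53 and -1.07 with bFGF at 30 days and at most -5.50 in the 9 other cultures. Of the 67 lower probes not well above background on either FGFC array, 35 had the bFGF culture above all 9.

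Among the remaining lists, VLDLR, a lipoprotein receptor, was the only gene called of 15 in the list of the amino acid and endoplasmic reticulum stress response, at 0.88 and 0.74 with bFGF and -0.46 and -0.61 with FGFC, while the list's median was 0.25. No gene was called among the 18 of cholesterol synthesis (median 0.19), the 18 of glycolysis and hypoxia (0.09), the 9 heat shock genes (0.20), the 11 p53 targets (0.09) or the 10 histone genes (0.24). None was called among the 8 detected genes of 10 in the cadherin list (0.03) or the 13 detected of 14 imprinted genes (-0.22). In all, 19 listed genes of 275 detected were called, from 13 of the 24 lists. Over all named genes with 1 probe each, 1.47% were called, 0.592% higher and 0.881% lower, but the lists were chosen with earlier results of these data known.

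**Figure D3:**
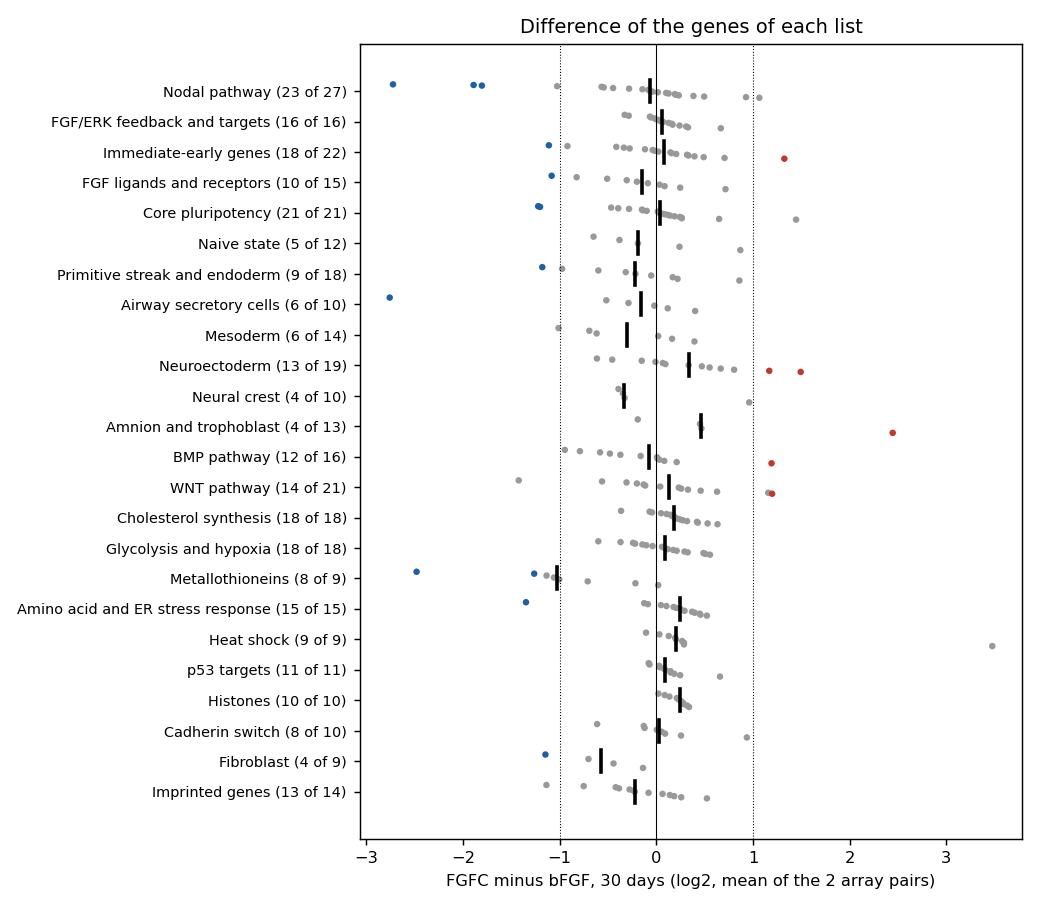
FGFC minus bFGF at 30 days (x axis, log2, mean of 2 array pairs) for each gene of 24 lists that was detected in a culture; the numbers in brackets are genes detected of genes with a probe, black bars are list medians and dotted lines 2-fold. Red points were called higher and blue points lower; the metallothionein median lies at -1.03 and the other medians between -0.57 and 0.46, and the grey point at the right edge, HSPB1, was 2-fold apart on 1 array pair only.

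Both 30-day cultures lay outside the range of the 9 other H1 cultures on many probes. Over all 24606 probes detected on the 4 arrays, the FGFC culture was below all 9 for 24.7% and above all 9 for 29.3%. The bFGF culture was below all 9 for 12.7% and above them for 16.3%. Among the calls detected on all 4 arrays, the FGFC culture was below all 9 for 153 of the 170 lower probes. It was above all 9 for 44 of the 49 higher probes. The same FGFC values made the calls, so a place outside the 9 is no separate support for a called gene.

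The called genes were also compared with the effect of 4 days without FGF, in cultures that the calls did not use. Of the 170 lower probes detected on all 4 arrays, 141 (82.9%) were lower without FGF than with bFGF in all 3 experiments, beside 35.7% of all 24606 probes. At 2-fold in all 3 experiments the counts were 112 (65.9%) and 4.25%. Of the 49 higher probes, 37 (75.5%) were higher without FGF in all 3, beside 31.9%, and 27 were 2-fold higher (55.1%), beside 2.13%. Over all calls, dim probes included, the counts were 194 of 261 lower probes (74.3%), beside 35.5% of all 27472, and 79 of 136 higher probes (58.1%), beside 30.4%. Without FGF, for example, TTN differed from its bFGF level by -6.72, -5.81 and -6.48, and LHX2 by 5.68, 8.85 and 8.03. LEFTY1 differed by -2.48, -0.93 and -2.38, also in the direction of its call. The median difference without FGF was -2.25 over the 170 probes and 1.57 over the 49. Some of the genes went the opposite way. ACTA1 was higher without FGF by 1.72, 2.47 and 2.65, LEFTY2 by 0.49, 2.50 and 0.97 and CXCR4 by 3.31, 2.78 and 3.00, while CHGA, higher with FGFC, differed without FGF by -3.50, -2.15 and -3.83.

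**Figure D4:**
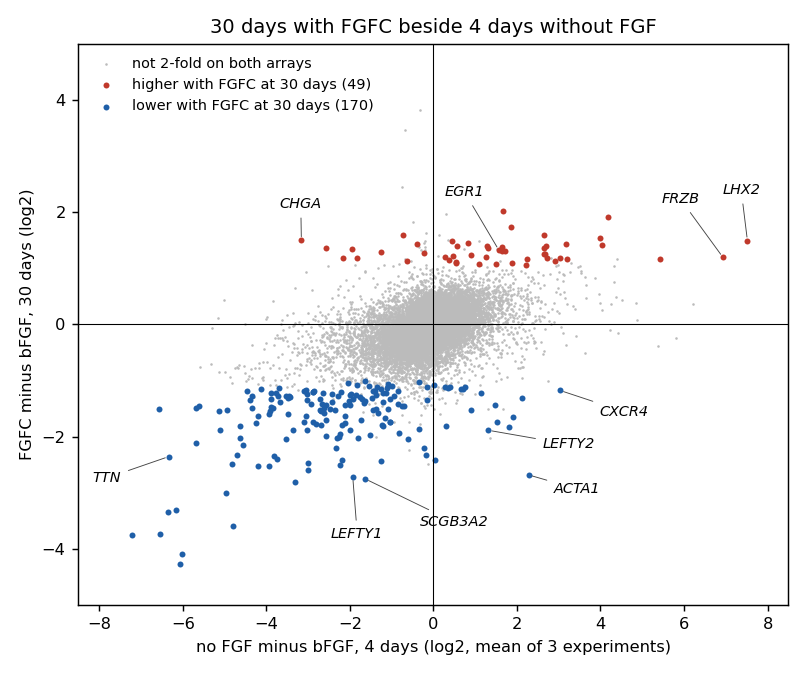
Each point is a probe detected on all 4 arrays, with the difference between 4 days without FGF and 4 days with bFGF on the x axis (log2, mean of 3 experiments) and the difference between 30 days with FGFC and with bFGF on the y axis (log2). Of the 170 blue points most lie left of 0 and of the 49 red points most lie right of it; LEFTY2, ACTA1, CXCR4 and CHGA lie in the other quadrants.

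The direction of the calls was followed in other pairs of cultures with FGFC and bFGF, first as counts over the probes detected on all 4 arrays. At 4 days in H1 ESCs, 151, 111 and 139 of the 170 lower probes were lower with FGFC in experiments 1, 2 and 3, while 49.6%, 49.1% and 55.5% of all 24606 probes were below 0. Of the 49 higher probes 41, 44 and 45 were higher there, while 50.4%, 50.9% and 44.5% of all were above 0. In 253G1 iPSCs after 36 days in E8 Medium, 147 of 170 and 40 of 49 had the same direction, while 50.6% of all were below 0 and 49.4% above. The counts were 110 and 33 in H1 ESCs after 41 days in MEF-conditioned medium, where the shares of all were 45.6% and 54.4%. They were 113 and 35 in 201B7 iPSCs after 50 days on feeder cells, with FGF at 10 ng/mL, where the shares were 47.6% and 52.4%. In KhES-1 ESCs after 30 days on feeder cells, with FGF at 5 ng/mL, they were 73 and 11, below the share of all probes in both directions (44.5% and 55.5%). Over all calls, dim probes included, the direction was shared less. At 4 days, 215, 145 and 188 of the 261 lower probes were lower in experiments 1, 2 and 3, while 53.1%, 45.7% and 56.0% of all 27472 probes were below 0. Of the 136 higher probes 71, 120 and 98 were higher, while 46.9%, 54.3% and 44.0% were above 0, so that in experiment 1 the share, 52.2%, was close to that of all probes. In 253G1 iPSCs the counts were 214 of 261 and 93 of 136. Each pair has its own control culture, and no test was made over these counts.

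With the spread taken from the replicated H1 cultures, 1 probe passed limma's test, a count that depended on the normalization. limma was fitted to 11 cultures, the 9 with 3 per group and the 2 at 30 days, and assumes that the lone cultures vary as the others do. Of 42405 probes, 1 (0.00236%), which reads ANKS6, passed an adjusted p of 0.05, and 1500 (3.54%) had an unadjusted p under 0.05. With normexp 54 probes passed, 190 with quantile normalization and 94 on array 2 alone, but 0 on array 1 alone. Among the 170 lower and 49 higher probes detected on all 4 arrays, 123 and 38 had an unadjusted p under 0.05, but the size that the rule required helped to choose them. limma gave LEFTY1 a log2 difference of -2.72 with a standard error of 0.86 and an adjusted p of 0.812, and SCGB3A2 -2.76 with 0.86 and 0.812. EGR1 had 1.32 with 0.56 and an adjusted p of 1, ACTA1 -2.68 with 0.56 and 0.351, and NR3C1, on its dimmer probe, 1.60 with 0.29 and 0.240. With 1 culture on each side, the differences above describe these 2 cultures.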

How the data were processed

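Cy3-labelled RNA of H1 cultures was hybridised to one-colour Agilent arrays of 62976 spots. The values the authors deposited are signal intensities from Feature Extraction 10.7.3.1 (per the file headers), linear and with background removed, but without scaling across arrays. Median spot and background intensities deposited by the authors served only for the normexp alternative. The deposited files also flag, for each spot, whether the authors' scanner software took it as an outlier or as well above background. The deposited series table holds the same intensities.

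Control and outlier spots were left out, signals were floored at 1, transformed to log2 and averaged over spots, giving 42405 probes, and each array's 75th percentile was subtracted. A probe counted as well above background where at least 0.5 of its spots were flagged. Probes were named by accession from RefSeq (25711), otherwise from the study's gene table (1067), and 15627 have no symbol here. The 2 arrays of a culture count as 1 sample.

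The fold rule and named genes were set as follows: 2-fold on both array pairs; the text names the 15 highest and 15 lowest called genes by the smaller array difference, 1 probe (the brightest) a gene, every called gene of 24 lists, and LEFTY1, SCGB3A2 and EGR1; other genes are marked as chosen after their values were seen. The members and lists were chosen with earlier results of these data known. A fold is given as "at least" where no array of the lower culture was well above background; it is then taken against, per array, the higher of the lowest such signal and the probe's own. limma 3.58.1 in R 4.3.3 was used with Benjamini-Hochberg adjustment over all probes, and Python 3.11.15 for counts. Scripts were tested on simulated data. Alternatives were normexp with an offset of 50, quantile normalization, other filters, single arrays, the replicate block and left-out experiments. The number of arrays limits the precision. Whether the paired arrays share 1 RNA extract is not given in the sources used here. Promoters are from RefSeq, GRCh38.p14.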

Additional observations from a re-analysis of the deposited data

Results flagged for a closer look

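ANKS6 was picked out because its difference between FGFC and bFGF at 30 days exceeded that at 4 days in limma's test of the difference itself, by 3.80 with a standard error of 0.33 and an adjusted p of 0.0404. It was also the only probe to pass the 30-day test, with an adjusted p of 0.0112 (limma). It read 3.27 on array 1 and -4.06 on array 2 of the bFGF culture, and 3.40 and 3.46 on the FGFC arrays, while the 9 other cultures lay between 3.15 and 3.53. The difference thus rests on bFGF array 2. On array 1 alone, 0 probes passed the 30-day test and 1546 had an unadjusted p under 0.05 (limma).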

How the results depend on the processing

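The count of 397 called probes ranged from 313 to 411 with quantile normalization (411, of which 365 shared), the 75th percentile of well-detected probes (409), the deposited series table (397), a floor at the lowest detected signal (313), all 4 array combinations (360), or without probes that differed between slides, an alternative chosen after seeing the data (365). It was 118 with normexp, 219 with detection on all 4 arrays, 724 on averages, 878 with no filter, and 1836 and 1816 on array 1 or array 2 alone. Lower probes were 65.7% of the calls, 81.4% with normexp, 77.6% with detection on all 4 arrays, 77.3% with the floor and 55.7% on array 1. All 45 genes named by the rule kept their direction under normexp and quantile normalization, but only 27 stayed 2-fold under normexp. LHX2, FRZB, BMP2 and CXCR4 were among those that did not. Single arrays could not change the direction or the 2-fold size of these genes, because the rule requires both on each array pair.

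limma's count of 1 at 30 days became 54 with normexp, 190 with quantile normalization, 24 with only detected probes, 15 with the no FGF cultures, 26 with an intensity trend, 0 on array 1 and 94 on array 2. For the 30-day against the 4-day difference, 1 became 6, 96, 8, 9 and 12 under the first 5, and 41 on array 2. Leaving out an experiment gave 0 to 0 for both. With the experiment number as a replicate block, 0 passed in both (1873 unadjusted p under 0.05 at 30 days). Same-numbered cultures did not deviate together in all pairs (r from -0.42 to 0.55), so the number was not taken as a pairing. The cause of these changes was not tested, apart from array 2 of the bFGF culture for ANKS6.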
